A study of Mus musculus with 16 samples.

Results

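Cardiac macrophages were followed through 10 genes in bulk RNA from the mouse heart apex. The genes were chosen by name, with earlier results of these data known. Each was found as 1 row of the count table, which makes 10 of 55573 genes. Pan-macrophage genes were Cd68, Adgre1 and Csf1r, tissue-resident genes were Cd163, Mrc1, Lyve1, Timd4 and Folr2, and injury-associated genes were Lgals3 and Trem2. All mice were wild type and had received an AAV9 virus under the skin on postnatal day 1. The virus carried either GFP or Cardinal, a long noncoding RNA annotated in the mouse as Gm12295, behind a chicken cardiac troponin T promoter that drives expression in cardiomyocytes. The genotypes are labelled AAV9-cTNT-GFP and AAV9-cTNT-CARDINAL, called AAV9-GFP and AAV9-Cardinal here. The virus-injected mice then underwent sham surgery or transverse aortic constriction (TAC), which raises the pressure against which the left ventricle pumps, and hearts were collected 4 weeks later. Each of the 4 groups held 4 mice, and the age at surgery is not given in the sources used here. Neither an uninjected heart nor sorted macrophages were analysed here, so fewer macrophages and less RNA per macrophage cannot be told apart.

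Macrophages take up dead cells, debris and lipid, and they release signals that act on fibroblasts and vessels. The healthy mouse heart holds resident macrophages that renew themselves locally and carry scavenger and uptake receptors such as CD163, MRC1, LYVE1, TIM-4 and folate receptor beta. Monocytes that enter from the blood after injury can become macrophages as well, and such cells often express galectin-3 and TREM2. CSF1, made by stromal and endothelial cells, keeps macrophages alive through the receptor CSF1R.

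Totals lay between 16441997 and 21904589 counts per mouse, and 3 counts, taken as the smallest detectable level, corresponded to between 0.126 and 0.195 CPM, the usual scaling of counts to library size. Only counting error enters this limit. The tissue label was borne out by the summed level of 7 cardiomyocyte genes, between 35820 and 52260 CPM in all mice. The lowest member count was 11, for Timd4 and for Trem2 in 1 mouse each, and all 10 genes passed the filter on low counts, which kept 16857 genes. AAV9-Cardinal TAC replicate 1 stood apart from the other mice of its group. Its Gm12295 level was 93.9 CPM, against 18.3 to 20.6 CPM in the other 3 mice, and its level of Postn, a matrix protein gene of activated fibroblasts, was 114.9 CPM, against 38.2 to 51.2 CPM. Calls of listed and related genes that were gained or lost without this mouse are given with both values. Of the other blood cell lists, the summed CPM of 6 neutrophil genes lay between 0.649 and 5.13, of 7 T cell genes between 0.779 and 2.31 and of 4 B cell genes between 0 and 1.00. Sums were higher for 6 monocyte genes (20.3 to 37.1 CPM), 6 dendritic cell genes (13.9 to 22.6 CPM) and 4 mast cell genes (4.59 to 8.41 CPM). The 2 injury-associated members summed to between 1.60 and 5.87 CPM. None of the B cell genes and 1 of the T cell genes passed the filter.

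Promoter sequences are shown for Cd68, Lgals3 and Trem2, the genes whose TAC and sham mice did not overlap in AAV9-GFP hearts (values below). Each run holds the 250 bases before the RefSeq start on GRCm38.p6, read 5′ to 3′ on the gene's strand, and capitals mark motifs found on either strand.
Cd68, chr11:69666171-69666420, minus strand: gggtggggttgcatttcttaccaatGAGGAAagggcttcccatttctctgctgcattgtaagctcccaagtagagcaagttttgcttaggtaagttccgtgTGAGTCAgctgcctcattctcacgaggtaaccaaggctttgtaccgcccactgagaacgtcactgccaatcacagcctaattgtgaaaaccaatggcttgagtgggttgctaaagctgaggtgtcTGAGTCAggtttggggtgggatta
Lgals3, chr14:47373610-47373859, plus strand: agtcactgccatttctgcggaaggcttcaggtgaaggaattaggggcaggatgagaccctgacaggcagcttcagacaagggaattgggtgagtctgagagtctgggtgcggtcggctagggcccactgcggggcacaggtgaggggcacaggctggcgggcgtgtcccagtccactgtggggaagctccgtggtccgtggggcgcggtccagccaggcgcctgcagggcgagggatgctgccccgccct
Trem2, chr17:48346151-48346400, plus strand: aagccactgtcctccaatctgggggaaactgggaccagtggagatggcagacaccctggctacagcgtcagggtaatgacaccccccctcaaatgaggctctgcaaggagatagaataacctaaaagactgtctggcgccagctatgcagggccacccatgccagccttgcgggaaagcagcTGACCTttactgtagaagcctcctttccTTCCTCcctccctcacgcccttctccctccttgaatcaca
The motifs searched were GAGGAAGT (a PU.1 site), GAGGAA (the ETS core within it), TGAGTCA (AP-1), TGCTGA (a core of MAF sites), CACGTG (an E-box) and TGACCT (a nuclear receptor core). The Cd68 window held TGAGTCA at 2 places, from 149 to 143 and from 24 to 18 bases before the start, and GAGGAA from 225 to 220 bases before it. Of all 32851 promoter windows of this length, 4.46% held TGAGTCA and 23.3% held GAGGAA. The Trem2 window held GAGGAA on the opposite strand, 40 to 35 bases before the start, and TGACCT, 68 to 63 bases before it, a motif found in 14.0% of windows. The Lgals3 window, whose RefSeq start lies downstream of the start of the GENCODE gene, held none of the 6 motifs. GAGGAAGT, CACGTG and TGCTGA occurred in 2.44%, 6.02% and 16.1% of windows and in none of these 3. Matching letters describe the windows and are not evidence of binding.

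The annotated genes lie at chr11:69664213-69666153 (Cd68), chr14:47367751-47386160 (Lgals3) and chr17:48346401-48354147 (Trem2) in GENCODE M21, and all are protein coding. Folr2 (chr7:101839988-101857194) overlaps the antisense gene Gm10602 over 63.1% of its exonic bases, and Csf1r overlaps the antisense gene Hmgxb3 over 15.1%. Whether the counting used strand is not given in the sources used here, so Folr2 and Gm10602 reads may not be fully separated.

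Per base of exon, the most abundant member in AAV9-GFP sham hearts was Lyve1, a hyaluronan receptor that lymphatic endothelium also carries, at 7.01 ± 0.61 RPKM (SD, n = 4). Cd68, a lysosomal membrane glycoprotein, followed at 4.57 ± 0.45 RPKM (SD, n = 4), and Csf1r at 4.11 ± 0.61 RPKM (SD, n = 4). Cd163, the hemoglobin-haptoglobin scavenger receptor, reached 3.63 RPKM and Mrc1, the mannose receptor, 3.25 RPKM. The ranges of neighbours overlapped from Cd68 down to Mrc1, so their order was not set by these mice. Folr2, a folate receptor, at 2.03 RPKM overlapped with Adgre1, which encodes the adhesion receptor F4/80, at 1.65 RPKM. Lgals3, the beta-galactoside-binding lectin galectin-3, at 0.761 RPKM overlapped with Timd4, a phosphatidylserine receptor, at 0.571 RPKM. Trem2, a lipid-sensing receptor of myeloid cells, was the lowest at 0.164 ± 0.012 RPKM (SD, n = 4) and lay below every other member in every mouse of this group. In all 4 groups Lyve1 ranked first, Cd68 ranked second and Trem2 ranked last by mean RPKM.

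**Figure D1:**
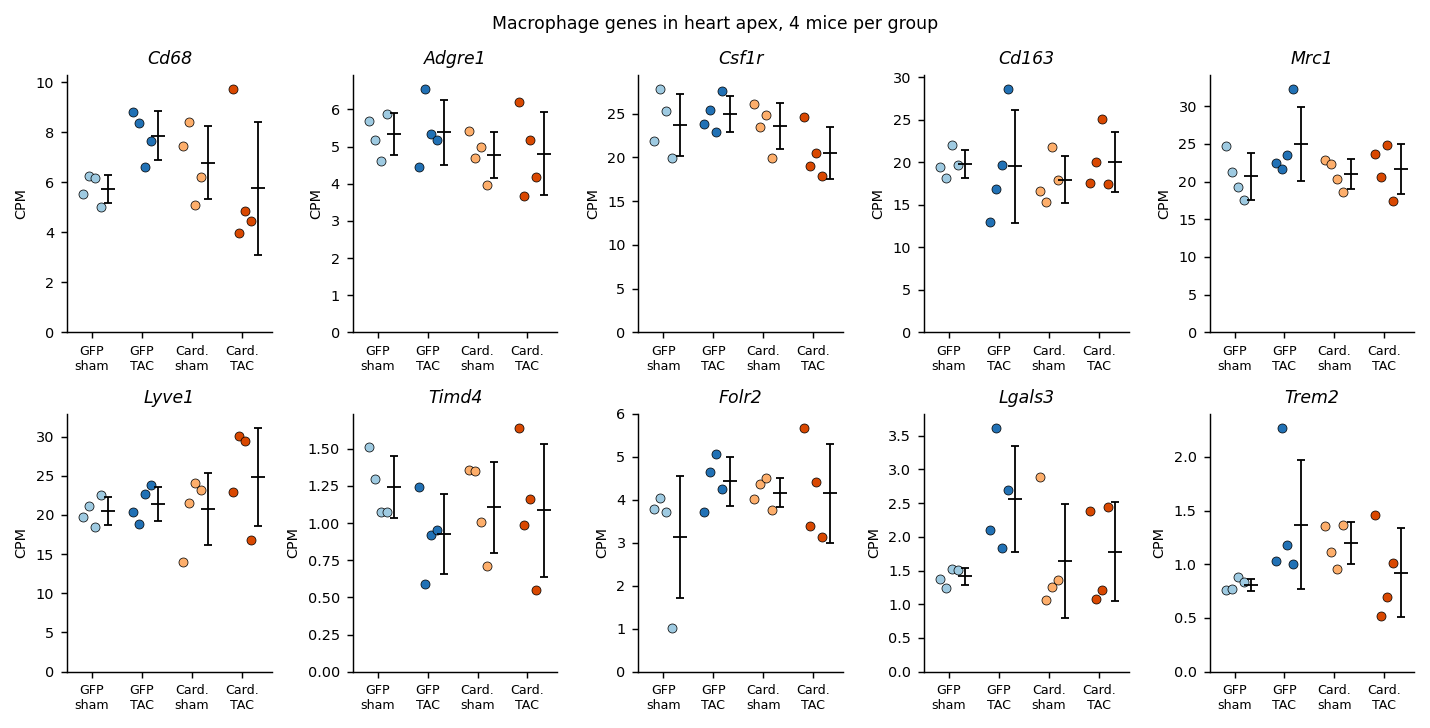
Level of each of the 10 macrophage genes (CPM, linear axis from 0) in each mouse of the 4 groups, with GFP for AAV9-GFP and Card. for AAV9-Cardinal. Points are mice and black bars are mean ± SD (n = 4). In the AAV9-GFP groups the TAC and sham points separate for Cd68, Lgals3 and Trem2, and AAV9-Cardinal TAC replicate 1 lies at 9.73 CPM of Cd68.

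The comparison within AAV9-GFP hearts addressed whether pressure overload changed macrophage transcripts in hearts with the control virus. Lgals3 and Trem2 had the largest positive estimates of the list, 1.81-fold and 1.69-fold higher after TAC, with Cd68 at 1.37-fold, while Adgre1, Csf1r, Cd163 and Lyve1 had estimates within 1.1-fold of sham in either direction. With all 16 mice in the quasi-likelihood fit of edgeR, 17.4% of all tested genes were called at an adjusted p under 0.05, and none of the 10 genes was among them. Lgals3 and Trem2 passed an unadjusted p under 0.05 in edgeR, and DESeq2 also called 0 of 10, with 2 at an unadjusted p under 0.05. For 3 of the 10 genes the 4 TAC mice did not overlap with the 4 sham mice, which held for 20.3% of all tested genes. The median log2 fold change was 0.17 over the 10 genes and 0.0050 over all tested genes.

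Lgals3 stood at 1.37, 1.25, 1.52 and 1.52 CPM in AAV9-GFP sham hearts and at 2.1002, 3.61, 1.84 and 2.70 CPM in AAV9-GFP TAC hearts. The groups did not overlap, and the exact permutation test (two-sided) gave p = 0.029, which 4 mice against 4 cannot go below. The log2 fold change was 0.86 (SE 0.33, 95% interval from 0.16 to 1.56, edgeR adjusted p = 0.089). These levels rest on 26 to 31 counts per sham mouse and 42 to 86 counts per TAC mouse.

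Trem2 stood at 0.757, 0.768, 0.882 and 0.831 CPM in AAV9-GFP sham hearts and at 1.03, 2.27, 1.18 and 1.00 CPM in AAV9-GFP TAC hearts. The groups did not overlap (exact two-sided permutation test, p = 0.029), and replicate 3 lay far above the other 3 TAC mice. The log2 fold change was 0.76 (SE 0.31, 95% interval from 0.10 to 1.41, edgeR adjusted p = 0.11). It was 0.40 without that replicate. Sham mice had 16 to 18 Trem2 counts each.

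Cd68 stood at 5.53, 6.24, 6.17 and 5.03 CPM in AAV9-GFP sham hearts and at 8.83, 8.39, 6.61 and 7.65 CPM in AAV9-GFP TAC hearts, again without overlap (exact two-sided permutation test, p = 0.029). The log2 fold change was 0.45 (SE 0.23, 95% interval from -0.039 to 0.95, edgeR adjusted p = 0.21). The spread that entered this test was shared by all 16 mice and included AAV9-Cardinal TAC replicate 1, without which Cd68 passed the threshold (log2 fold change 0.46, SE 0.14, edgeR adjusted p = 0.034). With only the 8 AAV9-GFP mice in the fit, Cd68 and Lgals3 passed the threshold (edgeR adjusted p = 0.029 and 0.032), as did 2338 of all 16306 tested genes. Over the 40 exact tests of single genes between pairs of groups, p = 0.029 was reached 4 times, by these 3 genes and by Trem2 between the viruses in sham hearts.

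The other pan-macrophage genes differed little between AAV9-GFP TAC and sham. Adgre1 stood at 5.68, 5.19, 4.61 and 5.87 CPM in sham and 4.46, 6.55, 5.34 and 5.17 CPM in TAC mice. Csf1r, the receptor for CSF1 and IL-34, stood at 21.9, 27.8, 25.3 and 19.9 CPM in sham and 23.8, 25.4, 22.9 and 27.6 CPM in TAC mice. Both pairs of groups overlapped. The 95% interval of the fold change ran from 0.80 to 1.27 for Adgre1 and from 0.88 to 1.25 for Csf1r.

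The 5 tissue-resident genes gave no common direction, with 3 positive and 2 negative estimates. Mrc1 lay between 17.5 and 24.7 CPM in AAV9-GFP sham and between 21.7 and 32.3 CPM in AAV9-GFP TAC mice (log2 fold change 0.27, SE 0.14, edgeR adjusted p = 0.21). Its highest value came from AAV9-GFP TAC replicate 7, without which the estimate was 0.13. Cd163 ranged from 18.2 to 22.1 CPM in sham and spread from 12.9 to 28.6 CPM in TAC mice (log2 fold change -0.023, SE 0.19). Lyve1 ranged from 18.4 to 22.5 CPM in sham and from 18.9 to 23.8 CPM in TAC mice (log2 fold change 0.066, SE 0.18). The TAC mice thus spread more widely than the sham mice for Cd163, and the groups overlapped for all 3 genes.

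Timd4 had 1.51, 1.30, 1.08 and 1.08 CPM in AAV9-GFP sham and 1.24, 0.587, 0.919 and 0.957 CPM in AAV9-GFP TAC mice (log2 fold change -0.42, SE 0.29, edgeR adjusted p = 0.37). It had the lowest estimate of the list, with overlapping groups and 14 to 32 counts per mouse. Folr2 had 3.78, 4.03, 3.72 and 1.03 CPM in AAV9-GFP sham and 3.73, 4.66, 5.07 and 4.26 CPM in AAV9-GFP TAC mice (log2 fold change 0.49, SE 0.28, edgeR adjusted p = 0.27). Sham replicate 4 had 21 Folr2 counts against 76 to 84 in the other 3 sham mice, and the estimate was 0.20 without it. Its count of the antisense gene Gm10602 was 106, against 97 to 102 in the other sham mice.

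In AAV9-Cardinal hearts, no listed gene separated TAC from sham mice, while 13.7% of all tested genes did. edgeR called 0 of the 10 genes against 6.48% of all tested genes, with 0 at an unadjusted p under 0.05, and DESeq2 gave 0 and 0 as well. The median log2 fold change of the 10 genes was -0.00067. Estimates ran from -0.36 (Trem2, SE 0.31) to 0.26 (Lyve1, SE 0.18).

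Cd68 stood at 7.46, 8.41, 5.09 and 6.23 CPM in AAV9-Cardinal sham mice and at 9.73, 3.99, 4.84 and 4.47 CPM in AAV9-Cardinal TAC mice (log2 fold change -0.24, SE 0.23, edgeR adjusted p = 0.62). Replicate 1 of the TAC group was the highest of all 16 mice and the other 3 were the lowest of all 16. Without replicate 1, Cd68 was lower after TAC and was called by edgeR (log2 fold change -0.62, SE 0.16, adjusted p = 0.028), a 0.65-fold level. The exact permutation test of 3 mice against 4 then gave p = 0.057, where 35 labelings allow 0.029 at the smallest. Replicate 1 was singled out with its Cd68 level known, so these values describe the other mice and are not an independent test.

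Lgals3 had 2.89, 1.07, 1.25 and 1.36 CPM in AAV9-Cardinal sham and 2.39, 1.08, 1.21 and 2.44 CPM in AAV9-Cardinal TAC mice (log2 fold change 0.11, SE 0.34). Sham replicate 1 and TAC replicates 1 and 6 were high, and the remaining 5 mice lay at or below 1.36 CPM. Trem2 had 1.36, 1.12, 0.961 and 1.36 CPM in sham and 1.46, 0.517, 0.698 and 1.01 CPM in TAC mice (log2 fold change -0.36, SE 0.31, edgeR adjusted p = 0.56). The 95% intervals of the fold change ran from 0.66 to 1.77 for Lgals3 and from 0.49 to 1.23 for Trem2. In AAV9-GFP hearts they ran from 1.115 to 2.94 and from 1.075 to 2.66, so for both genes the intervals of the 2 viruses overlapped. The difference between the responses is tested separately below.

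Csf1r ranged from 19.98 to 26.1 CPM in AAV9-Cardinal sham and from 17.9 to 24.6 CPM in AAV9-Cardinal TAC mice (log2 fold change -0.20, SE 0.12, edgeR adjusted p = 0.34). Adgre1 ranged from 3.96 to 5.42 CPM in sham and from 3.67 to 6.19 CPM in TAC mice. For all 3 pan-macrophage genes, TAC replicate 1 was the highest mouse of its group. Lyve1 had 14.0, 21.5, 24.1 and 23.2 CPM in sham and 23.0, 30.0, 29.4 and 16.8 CPM in TAC mice. TAC replicates 4 and 5 were the highest of all 16 mice for Lyve1, yet the groups overlapped (edgeR adjusted p = 0.43). Cd163, Mrc1, Timd4 and Folr2 had estimates between -0.047 and 0.16 on the log2 scale, all with overlapping groups.

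**Figure D2:**
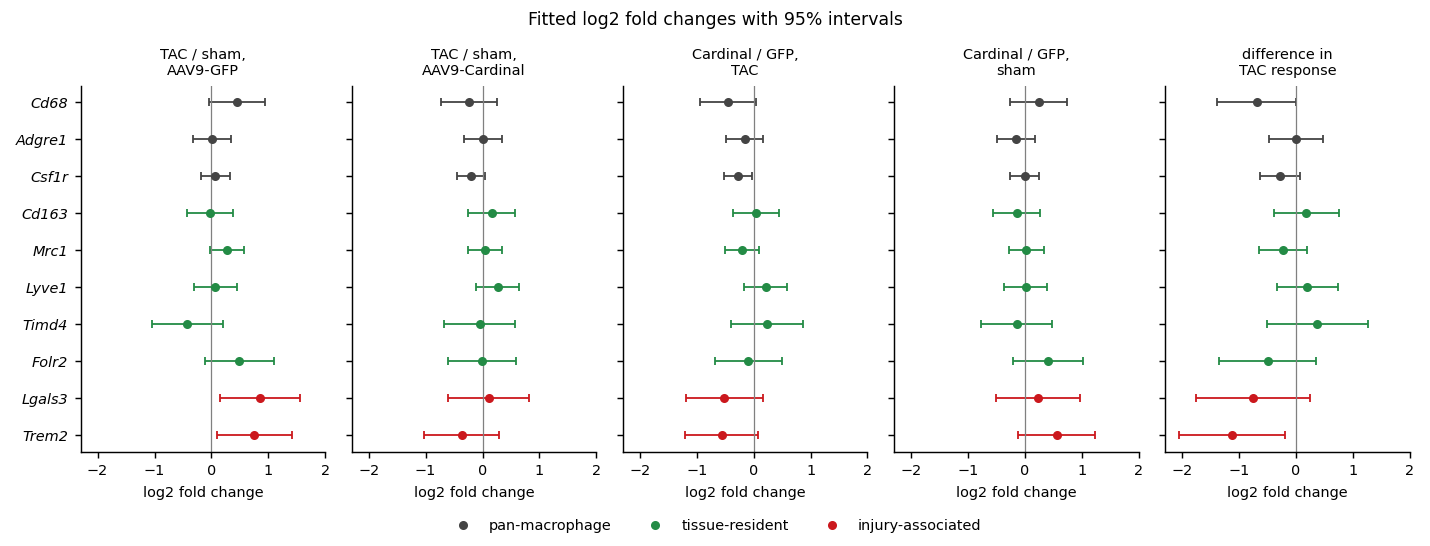
Fitted log2 fold changes of the 10 genes (points) with 95% intervals (bars) from edgeR's quasi-likelihood fit of all 16 mice, in 4 comparisons of 2 groups and, at the right, the difference between the responses to TAC of AAV9-Cardinal and AAV9-GFP hearts. In AAV9-GFP hearts the intervals of Lgals3 and Trem2 lie above 0. Between the viruses in TAC hearts the interval of Csf1r lies below 0, as does that of Trem2 in the difference, and no adjusted p was under 0.05.

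The comparison between viruses addressed how Cardinal expressed in cardiomyocytes altered the heart under pressure overload. Between the viruses in TAC hearts, 7 of the 10 genes had lower estimates with AAV9-Cardinal, among them all 3 pan-macrophage and both injury-associated genes, but none passed the threshold in edgeR, which called 0.101% of all tested genes. Csf1r alone passed an unadjusted p under 0.05 (log2 fold change -0.28, SE 0.12, edgeR adjusted p = 0.27). DESeq2 called 0 of the 7 genes to which it gave an adjusted p, with 1 gene at an unadjusted p under 0.05. None of the 10 genes had groups without overlap, against 6.77% of all tested genes. Estimates for Cd68, Lgals3 and Trem2 were -0.45 (SE 0.23), -0.52 (SE 0.32) and -0.56 (SE 0.30).

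These values moved with single mice. Without AAV9-GFP TAC replicate 3, the estimates shrank to -0.20 for Trem2 and -0.30 for Lgals3. Without AAV9-Cardinal TAC replicate 1, the other 3 AAV9-Cardinal TAC mice had 3.99 to 4.84 CPM of Cd68 and the 4 AAV9-GFP TAC mice 6.61 to 8.83 CPM. Cd68 was then called lower with AAV9-Cardinal (log2 fold change -0.82, SE 0.15, edgeR adjusted p = 0.014), and the mice did not overlap (permutation test, exact and two-sided, p = 0.029, the lowest that 35 labelings give). Replicate 1 was singled out with its high Cd68 level known, so leaving it out favours such a separation and gives no independent support. The share of all tested genes without overlap was not computed for 3 mice against 4. The fit without this mouse called 3.13% of 17075 tested genes in place of 0.101% of 16857. Csf1r, Trem2 and Lgals3 were not called in it, with log2 fold changes of -0.38, -0.88 and -0.69 and edgeR adjusted p of 0.085, 0.13 and 0.30.

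Some fibroblast genes were also highest in the AAV9-Cardinal TAC mouse with the highest Cd68. Col1a1, a fibrillar collagen gene, stood at 95.5 CPM there and at 46.0 to 52.4 CPM in the other 3 mice, whereas Tcf21, a fibroblast transcription factor gene, lay between 2.82 and 3.18 CPM in all 4. Postn ranged from 134 to 222 CPM in AAV9-GFP TAC mice, and Col3a1, another collagen gene, reached 249 CPM in replicate 1 of the AAV9-Cardinal TAC group and between 75.3 and 92.5 CPM in the other 3 mice. Postn, Col1a1, Col1a2, Col3a1 and Dcn of the 7 fibroblast genes were called lower with AAV9-Cardinal in the fit without that mouse, and 0 of 7 in the fit with it. The part of the Cardinal level or of the fibroblast genes in the Cd68 level of this mouse was not tested.

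**Figure D3:**
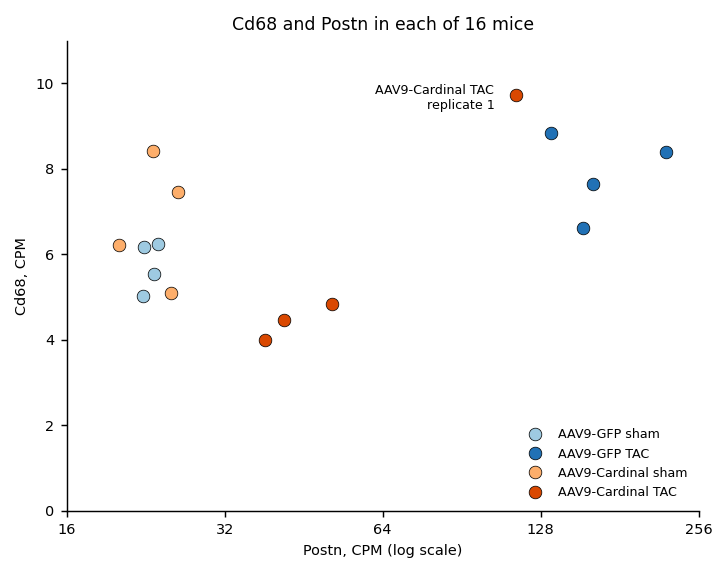
Cd68 (CPM, linear axis from 0) against Postn (CPM, log axis) in each of the 16 mice, coloured by group. AAV9-Cardinal TAC replicate 1 lies at 9.73 CPM of Cd68 beside the 4 AAV9-GFP TAC mice, and the other 3 AAV9-Cardinal TAC mice lie at 3.99 to 4.84 CPM.

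In sham hearts the viruses gave similar levels of most listed genes. edgeR called 0 of 10 genes, with 0 at an unadjusted p under 0.05, against 0.0119% of all tested genes, and DESeq2 gave 0 and 0. Trem2 was the one gene without overlap, at 0.757 to 0.882 CPM with AAV9-GFP and 0.961 to 1.36 CPM with AAV9-Cardinal (log2 fold change 0.56, SE 0.32, edgeR adjusted p = 1, exact two-sided permutation test p = 0.029). Non-overlap occurred for 2.36% of all tested genes. The lower group rests on 16 to 18 counts per mouse and the higher on 20 to 30. The other 9 genes overlapped, with estimates from -0.16 (Adgre1) to 0.41 (Folr2).

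The difference between the responses to TAC of the 2 viruses was tested as the interaction of virus and surgery. edgeR called 0 of the 10 genes and 0.0119% of all tested genes, and DESeq2 gave none of the 10 an adjusted p. In edgeR 1 gene of the list had an unadjusted p under 0.05: Trem2, for which the log2 response was lower by 1.12 with AAV9-Cardinal (difference -1.12, SE 0.44, 95% interval from -2.05 to -0.19, edgeR adjusted p = 0.40), and the difference was -0.76 without AAV9-GFP TAC replicate 3. For Cd68 the difference was -0.69 (SE 0.33, edgeR adjusted p = 0.49), and without AAV9-Cardinal TAC replicate 1 it was -1.07 (SE 0.21, edgeR adjusted p = 0.042), which passed the threshold while 0.463% of tested genes did. That mouse was singled out with its Cd68 level known. Lgals3 gave -0.75 (SE 0.47), and -0.31 without AAV9-Cardinal sham replicate 1, the mouse with the highest Lgals3 of its group. The tissue-resident genes ran from -0.50 (Folr2, SE 0.40) to 0.38 (Timd4, SE 0.41), with unadjusted edgeR p of 0.23 or more.

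To set each gene against the macrophage transcripts of the same mouse, its log2 CPM was taken relative to the mean log2 CPM of Cd68, Adgre1 and Csf1r, as a description without a test. Lgals3 stood at -2.59 ± 0.20 in AAV9-GFP sham and -1.99 ± 0.30 in AAV9-GFP TAC hearts, and at -2.51 ± 0.55 and -2.21 ± 0.52 in AAV9-Cardinal hearts (SD, n = 4 each). Trem2 stood at -3.33 ± 0.15 and -2.88 ± 0.44 in AAV9-GFP sham and TAC hearts and at -2.84 ± 0.27 and -3.09 ± 0.37 in AAV9-Cardinal hearts (SD, n = 4 each). Timd4 stood at -2.78 ± 0.21 and -3.37 ± 0.49 with AAV9-GFP, whereas it stood at -2.97 ± 0.24 and -2.87 ± 0.39 with AAV9-Cardinal. Lyve1 stood at 1.18 ± 0.17 and 1.07 ± 0.23 with AAV9-GFP and at 1.15 ± 0.50 and 1.57 ± 0.54 with AAV9-Cardinal. In AAV9-GFP hearts the sham and TAC ranges of this relative level did not overlap for Lgals3, nor for Cd68, which is itself part of the reference. Relative Cd68 ran from -0.728 to -0.534 in sham and from -0.493 to -0.15 in TAC mice. The share of all tested genes without overlap on this measure was not computed.

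Other genes of macrophages and of the signals they receive give the context, and none of these lists was chosen without earlier results of these data in view. In AAV9-GFP hearts, 3 of 18 other macrophage genes rose after TAC, close to the 17.4% of all tested genes called in either direction. Cx3cr1, the fractalkine receptor, rose from 0.663 ± 0.287 to 1.98 ± 0.75 CPM (SD, n = 4; log2 fold change 1.57, SE 0.40, edgeR adjusted p = 0.013). These levels rest on 5 to 18 Cx3cr1 counts per sham mouse and 24 to 64 per TAC mouse. Fcgr1, an Fc receptor gene, rose by 0.60 and C1qb, a complement component gene, by 0.24 on the log2 scale. The remaining 15 genes, Itgam, Lyz2, Ptprc and Mertk among them, did not pass, and 17 of the 18 estimates were positive with a median of 0.23. In AAV9-Cardinal hearts 0 of 18 passed, with 14 positive estimates and a median of 0.12. Cd14, the lipopolysaccharide co-receptor gene, had an estimate of 1.24 (SE 0.42, edgeR adjusted p = 0.091) and was called without AAV9-Cardinal TAC replicate 1 (1.46, SE 0.41, edgeR adjusted p = 0.042). Cx3cr1 there stood at 0.820 ± 0.324 CPM in sham and 0.828 ± 0.366 CPM in TAC mice (SD, n = 4), and its difference in response of -1.54 (SE 0.59) did not pass (edgeR adjusted p = 0.39).

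Among 11 tested genes of lipid handling and injury response, Cd9 and Cd63, tetraspanins, and Fabp5, a fatty acid binding protein, rose in AAV9-GFP hearts. Of all tested genes, 17.4% were called in that comparison. Cd9 rose from 16.2 ± 0.5 to 25.0 ± 2.5 CPM (SD, n = 4; log2 fold change 0.62, SE 0.067, edgeR adjusted p = 3.6e-05). These 3 genes are also expressed outside macrophages. Spp1 and Gpnmb, which accompany Trem2 in lipid-laden macrophages, did not pass, at 0.72 (SE 0.40) and 0.20 (SE 0.23). In AAV9-Cardinal hearts Cd9 alone was called (log2 fold change 0.31, SE 0.067, edgeR adjusted p = 0.016), where 6.48% of all tested genes were called. None of the 10 tested resident genes beyond the members was called in either virus, where the medians were 0.14 and -0.053. Without AAV9-Cardinal TAC replicate 1, Ms4a4a was called in AAV9-Cardinal hearts (log2 fold change 1.58, SE 0.45, edgeR adjusted p = 0.045), against 1.42 (SE 0.43, edgeR adjusted p = 0.064) with it.

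Of 6 tested growth factor and recruitment genes, 2 rose in AAV9-GFP hearts and 0 in AAV9-Cardinal hearts, where 17.4% and 6.48% of all tested genes were called. Without AAV9-Cardinal TAC replicate 1 the count in AAV9-Cardinal hearts was 1, with Ccl2. Csf1, the ligand of CSF1R, rose from 30.6 ± 4.4 to 42.6 ± 1.6 CPM (SD, n = 4; log2 fold change 0.48, SE 0.13, edgeR adjusted p = 0.023) in AAV9-GFP hearts and stood at 35.8 ± 8.8 and 35.6 ± 2.3 CPM in AAV9-Cardinal sham and TAC hearts. Ccl2, a chemokine that draws monocytes through CCR2, rose by 1.26 (SE 0.30, edgeR adjusted p = 0.0085) with AAV9-GFP, and its estimate with AAV9-Cardinal was 1.04 (SE 0.30, edgeR adjusted p = 0.051), or 1.21 without that mouse (SE 0.29, edgeR adjusted p = 0.024). The ligand Csf1 was thus higher after TAC in AAV9-GFP hearts while its receptor gene Csf1r had an estimate of 0.072. The differences in response of Csf1 and Ccl2, -0.48 (SE 0.19) and -0.22 (SE 0.42), did not pass in edgeR.

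Of the TREM2 signalling genes, the adaptor gene Tyrobp and the kinase and lipase genes downstream of it were measured. Syk rose by 0.67 (SE 0.11, edgeR adjusted p = 0.00067) and Plcg2 by 0.63 (SE 0.15, edgeR adjusted p = 0.0086) in AAV9-GFP hearts, 2 of 5 tested genes, where 17.4% of all tested genes were called. Tyrobp stood at 4.19 ± 0.68 and 4.82 ± 0.75 CPM (SD, n = 4) and did not pass. Bulk RNA does not tell Syk and Plcg2 transcripts of macrophages from those of other heart cells. In AAV9-Cardinal hearts Syk rose by 0.48 (SE 0.11, edgeR adjusted p = 0.018), the only 1 of the 5, where 6.48% of all tested genes were called. Without AAV9-Cardinal TAC replicate 1, Plcg2 was called lower with AAV9-Cardinal in TAC hearts (-0.68, SE 0.11, edgeR adjusted p = 0.0061) and in its response to TAC (difference -0.75, SE 0.15, edgeR adjusted p = 0.046).

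Of 8 tested efferocytosis genes, those for the uptake of dying cells, Axl, Mfge8 and Pros1 rose in AAV9-GFP hearts by 0.47 (SE 0.088), 0.35 (SE 0.067) and 0.33 (SE 0.081), and 0 of 8 were called in AAV9-Cardinal hearts, beside 17.4% and 6.48% of all tested genes. Without AAV9-Cardinal TAC replicate 1, Mfge8 was called in AAV9-Cardinal hearts as well (0.24, SE 0.068, edgeR adjusted p = 0.044). The receptor gene Mertk stood at 9.60 and 8.72 CPM in AAV9-GFP sham and TAC hearts and did not pass. Which heart cells carried the Axl, Mfge8 and Pros1 transcripts cannot be told from bulk RNA. Of 3 tested monocyte genes, Ly6c2, which endothelial cells can also express, rose in AAV9-Cardinal hearts by 0.55 (SE 0.14, edgeR adjusted p = 0.027). Its estimate in AAV9-GFP hearts was 0.34 (SE 0.13, edgeR adjusted p = 0.095). Ccr2 stood at 1.21 ± 0.40 and 2.33 ± 0.61 CPM (SD, n = 4) in AAV9-GFP sham and TAC hearts (log2 fold change 0.93, SE 0.35, edgeR adjusted p = 0.079).

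**Figure D4:**
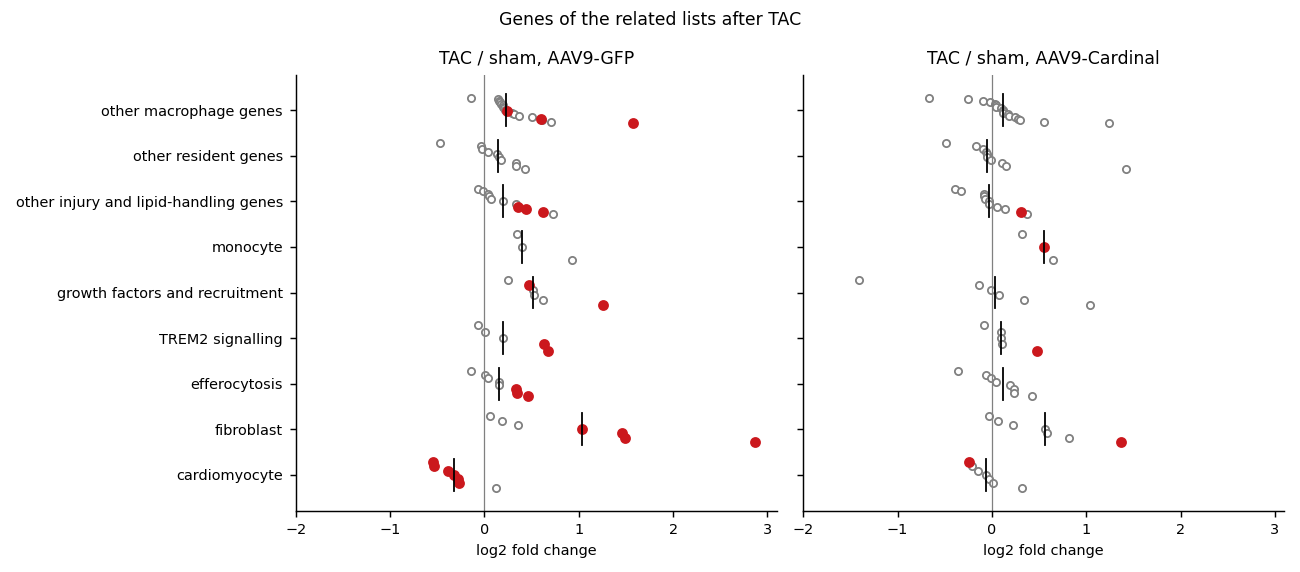
Fitted log2 fold changes after TAC of every tested gene in 9 related lists, in AAV9-GFP hearts (left) and AAV9-Cardinal hearts (right). Red points passed an edgeR adjusted p under 0.05, open points did not, and black lines are list medians, which for the 18 other macrophage genes were 0.23 and 0.12.

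Genes of cells other than macrophages were called as well. Of all tested genes, 17.4% were called in AAV9-GFP hearts and 6.48% in AAV9-Cardinal hearts. Single calls in these short lists are therefore not read as a change of a cell type. In AAV9-GFP hearts 4 of 7 fibroblast genes rose, with a summed level of 493 to 554 CPM in sham and 859 to 1109 CPM in TAC mice, and 6 of 7 cardiomyocyte genes fell. In AAV9-Cardinal hearts 1 of 7 fibroblast genes rose (Postn) and 1 of 7 cardiomyocyte genes fell (Atp2a2). Of 5 lymphatic endothelial entries, a cell type that also expresses Lyve1, Pdpn rose by 0.89 in AAV9-GFP hearts, and 0 of 5 were called in AAV9-Cardinal hearts. In AAV9-GFP hearts 1 of 5 endothelial genes (Cdh5) rose, and of 4 pericyte genes Pdgfrb rose and Abcc9 fell, while in AAV9-Cardinal hearts 0 of 5 and 1 of 4 (Abcc9, lower) were called. Of 3 dendritic cell genes tested, Clec9a rose in AAV9-Cardinal hearts by 0.63, and 0 of 3 neutrophil, 0 of 1 T cell and 0 of 4 mast cell genes were called in either virus. In neither comparison between the viruses, nor in the difference in response, was a gene of these or the preceding lists called with all 16 mice. Without AAV9-Cardinal TAC replicate 1, 8.41% of tested genes were called in AAV9-Cardinal hearts, among them Pecam1, an endothelial adhesion gene (0.36, SE 0.091), while Atp2a2 was not called and the Postn estimate was 0.88 in place of 1.37. Between the viruses in TAC hearts, C1qc, Cd9 and 5 fibroblast genes were then called lower and 4 cardiomyocyte genes higher with AAV9-Cardinal, and in the difference in response 4 fibroblast genes lower and 1 cardiomyocyte gene higher. Of all tested genes, that fit called 3.13% between the viruses in TAC hearts and 0.463% for the difference in response. The part of such shifts in the macrophage values was not tested.

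Within groups, the listed genes were compared in pairs from mouse to mouse. After the group means were subtracted, Lyve1 and Lgals3 had the strongest relation of 45 pairs over 16 mice (Pearson r = -0.819, Spearman rho = -0.759, permutation p = 0.011 and 0.017, adjusted p = 0.15 and 0.21). Without the 2 mice farthest from the median of Lyve1, r was -0.674. Lgals3 and Trem2 varied in the same direction (r = 0.730, rho = 0.694, permutation p = 0.012 and 0.030, adjusted p = 0.15 and 0.21, r = 0.742 without the 2 farthest mice), as did Mrc1 and Timd4 (r = 0.671, rho = 0.721, permutation p = 0.013 and 0.0058, adjusted p = 0.15 and 0.21, r = 0.772). Csf1r and Folr2 had the smallest permutation p for Pearson r (r = 0.641, rho = 0.585, permutation p = 0.01 and 0.033, adjusted p = 0.15 and 0.21, r = 0.498 without the 2 farthest mice). None of the 45 pairs passed an adjusted permutation p under 0.05. All values of a mouse come from 1 library.

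The genes most like each class were ranked among 14283 tested genes by Pearson correlation with the mean of the standardised class members. Group means were subtracted over the same 16 mice, and the ranking is a description. How high the top of 14283 correlations would reach by chance was not computed, so the names are not evidence of a shared cell type. For the pan-macrophage class these were Ccdc122 (r = 0.929), Postn (0.917), Shisa4 (0.906), Col5a2 (0.902) and Slc1a3 (0.902). Postn and Col5a2, both genes of matrix proteins, stood at 0.743 and 0.727 without AAV9-Cardinal TAC replicate 1. For the tissue-resident class they were Pcdhga12 (r = 0.882), Rabgap1 (0.869), Nek7 (0.851), Pid1 (0.825) and Rbm12 (0.825). For the injury-associated class they were Tspo (r = 0.909), a mitochondrial membrane protein gene, Gm8784 (0.887), Cst3 (0.884), the cystatin C gene, Serping1 (0.877) and Traf7 (0.854).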

How the data were processed

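Poly(A)-selected libraries from total RNA of the heart apex of 16 mice were read from 1 end over 50 bases. The deposited values are counts of reads for each of 55573 Ensembl genes, which the authors had not normalized, of which 93 could not be named with GENCODE M21. The submitters' processing notes name FastQC, HISAT2 2.1.0, edgeR 3.26.1 and GRCm38. The counting program, the annotation, the use of strand and the treatment of multiply matching reads are not given in the sources used here. No column was left unused.

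These counts were scaled by TMM, filtered by filterByExpr over the 4 groups and fitted by quasi-likelihood over the 16 mice together (edgeR 4.0.16, R 4.3.3), with a contrast per comparison (Benjamini-Hochberg adjusted p under 0.05 over all tested genes). Exact two-sided permutation tests used log2 CPM with a prior count of 2 (70 labelings of 4 against 4). Their p-values are not adjusted. RPKM used the union of GENCODE exons. Correlations were permuted 100000 times within groups. The method was tested on simulated data. Alternatives were DESeq2 1.42.0, upper-quartile scaling, other filters, a robust estimate of spread, only the 8 mice compared, mitochondrially encoded genes left out, replicate number as a block, and each mouse left out. The lists without AAV9-Cardinal TAC replicate 1 and the alternatives for the correlation were chosen after seeing the data.

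The members and lists were chosen with earlier results of these data known. All 10 members were named, and of each list up to 3 called genes per direction with the largest absolute change and at least 1 CPM. Other list genes, and genes lost or gained without AAV9-Cardinal TAC replicate 1, were named after their values were seen. Replicates are separate mice by their labels. Pairs of mice in a group differed by more than sampling noise. Figures and sequences were made with Python 3.11.15, pandas 2.3.3 and matplotlib 3.10.9. Of the listed genes, 7 had a RefSeq promoter window that was used. Lyve1 and Adgre1 had none, and the search over listed genes left out chromosome 18, where Csf1r lies.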

Additional observations from a re-analysis of the deposited data

Results flagged for a closer look

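Among 40 sets of 4 mice (10 genes in 4 groups), 5 had a mouse far from the other 3 by Dixon's test at the 95% level, where chance flags about 1 in 20, or 2 of 40. Cd68 reached 9.73 CPM in replicate 1 of the AAV9-Cardinal TAC group, against 3.99 to 4.84 CPM in the other 3 mice. Mrc1 was at 32.3 CPM in AAV9-GFP TAC replicate 7, against 21.7 to 23.5 CPM. Folr2 was at 1.03 CPM in AAV9-GFP sham replicate 4, against 3.72 to 4.03 CPM. Lgals3 was at 2.89 CPM in AAV9-Cardinal sham replicate 1, against 1.07 to 1.36 CPM. Trem2 was at 2.27 CPM in AAV9-GFP TAC replicate 3, against 1.00 to 1.18 CPM. The sets share mice, so the 5 are not independent of each other.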

How the results depend on the processing

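The 10 listed genes kept their direction and their side of the threshold under the robust estimate of spread, the 1 CPM filter, the omission of mitochondrially encoded genes and, where it gave an adjusted p, DESeq2. DESeq2 gave 3 members no adjusted p between the viruses in TAC hearts and none to any member for the difference in response. With only the 8 mice compared, 2 listed genes were called in AAV9-GFP hearts (Cd68 and Lgals3), beside 2338 of all 16306 tested genes. Counts over all genes moved more. Between the viruses in TAC hearts, 17 genes were called, against 31 with upper-quartile scaling, 3 without a filter, 35 with at least 1 CPM in 4 mice, 30 without mitochondrially encoded genes, 3 with only the 8 mice and 435 with DESeq2. In AAV9-Cardinal hearts 1092 became 615 without a filter. In sham hearts 2 became 5, and for the difference in response 2 became 145, with DESeq2. The cause was not tested.

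Same-numbered mice had correlations of their deviations from -0.0404 to 0.211. Those between mice numbered 1 were all positive, from 0.0671 to 0.211. Differently numbered mice were not compared, so whether same-numbered mice share a batch was not tested. The main fit did not take the numbers as pairs. With replicate number as a block, edgeR called 31 genes in AAV9-Cardinal hearts, 0 between the viruses in TAC hearts (1681 at an unadjusted p under 0.05), 1 in sham hearts and 1 for the difference in response. The block reversed the log2 estimates of Cd68 (0.044), Timd4 (0.17) and Folr2 (0.28) in AAV9-Cardinal hearts, of Folr2 between the viruses in TAC hearts (0.066) and of Adgre1 for the difference in response (0.030). Upper-quartile scaling reversed Adgre1 in AAV9-Cardinal hearts (-0.0034) and Csf1r in sham hearts (0.00038), and no filter reversed Adgre1 for the difference in response (0.0045). None of these was called.

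When single mice were left out, genes called ranged from 1962 to 3072 in AAV9-GFP hearts, from 384 to 1436 in AAV9-Cardinal hearts, from 0 to 535 between the viruses in TAC hearts, from 2 to 79 for the difference in response and from 1 to 3 between the viruses in sham hearts. Listed genes called ranged from 0 to 1, and were 0 throughout in sham hearts. Of 800 estimates of single genes, 50 reversed and 5 came to pass the threshold. Those that reversed had these ranges. In AAV9-GFP hearts they were -0.093 to 0.098 for Adgre1, -0.26 to 0.14 for Cd163 and -0.0032 to 0.16 for Csf1r. In AAV9-Cardinal hearts they were -0.14 to 0.12 for Adgre1, -0.19 to 0.11 for Folr2, -0.079 to 0.55 for Lgals3, -0.033 to 0.13 for Mrc1 and -0.31 to 0.17 for Timd4. Between the viruses they were, in TAC hearts, -0.12 to 0.28 for Cd163, -0.28 to 0.023 for Folr2 and -0.037 to 0.45 for Timd4. In sham hearts they were -0.080 to 0.080 for Csf1r, -0.21 to 0.40 for Lgals3, -0.070 to 0.16 for Lyve1 and -0.046 to 0.12 for Mrc1. For the difference in response, Adgre1 ranged from -0.15 to 0.10. Without AAV9-Cardinal sham replicate 1, Lgals3 passed in AAV9-GFP hearts (edgeR adjusted p = 0.041) and its estimate in AAV9-Cardinal hearts was 0.55. Without AAV9-GFP TAC replicate 3, the Trem2 estimate between the viruses in TAC hearts was -0.20. Between 11 and 54 Trem2 counts per mouse limit its precision. The correlation of Lyve1 with Lgals3 lay between -0.852 and -0.705 under the alternatives.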
